A study of Mus musculus with 36 samples.

Results

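Gene-dense windows are 100 kb stretches of the mouse autosomes in which the 5′ ends of 5 or more protein-coding genes lie. The genome (GRCm38) was cut into 100 kb windows from base 1 of each autosome, RefSeq protein-coding genes were placed by their 5′ ends, and genes of the olfactory (Olfr) and vomeronasal (Vmn) receptor families were not counted. Of 24618 autosomal windows, 578 were gene-dense, which is 2.35%, and they held 3634 of the 17760 counted gene starts, or 20.5%. They were compared with 8815 other windows that held at least 1 protein-coding gene start, for which Olfr and Vmn genes did count. A further 82 windows that could reach 5 only through genes whose 5′ end was not known were set aside. In 15143 windows no protein-coding gene start was placed, and some of these may hold the start of a gene whose 5′ end was not known. With such starts put at the lower or upper end of the gene, the other windows numbered 9524 or 9532. Among the gene-dense windows, 248 held 5 counted starts, 157 held 6, 70 held 7, 42 held 8 and the rest between 9 and 17. Chromosome 7 had the most, 94, and 314 windows adjoined another gene-dense window.

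The samples were 6 tissues of 24-month-old male C57BL/6J mice, with 2 samples per tissue. They were bone marrow with the red cells lysed, brain, heart, liver, peripheral blood mononuclear cells (PBMCs) from a Ficoll gradient and motile sperm from the epididymal tail. In each DNA sample single-strand breaks (SSBs) and apurinic or apyrimidinic sites (AP sites) were mapped at single-nucleotide resolution with the SSiNGLe and SSiNGLe-AP methods, which gave 12 libraries per assay. Sperm DNA was isolated with another kit than the DNA of the other tissues, so that kit and tissue cannot be told apart for sperm, and the files list lesions only, so that no tissue label could be checked against marker genes. All animals were of 1 age and untreated, and no comparison between ages was made.

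An SSB is an interruption of 1 strand of the double helix, left by oxidised sugars, by topoisomerases or as an intermediate of repair. An AP site is a sugar that has lost its base, either spontaneously or through a DNA glycosylase, and base excision repair turns it into a break before a polymerase and a ligase restore the strand. Gene-dense regions of mammalian genomes are in general rich in G and C, replicate early and hold many broadly expressed genes with open promoters.

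The stretches of DNA just upstream of gene starts show what the lists hold at nucleotide level. Among 1293 promoters of gene-dense windows that were considered, whose 250 upstream bases overlap no RefSeq gene, the median was 2 SSB positions and 2 AP positions over the 12 libraries of an assay. No SSB position lay in 22.5% of them, and no AP position in 21.0%. Below are those with the most positions, 2 for each assay, chosen for that number and shown as a description. Sequences are from RefSeq (GRCm38.p6), 5′ to 3′ on the strand of the gene. Capitals mark nucleotides listed on either strand in at least 1 library of the assay named.
Clp1, SSB: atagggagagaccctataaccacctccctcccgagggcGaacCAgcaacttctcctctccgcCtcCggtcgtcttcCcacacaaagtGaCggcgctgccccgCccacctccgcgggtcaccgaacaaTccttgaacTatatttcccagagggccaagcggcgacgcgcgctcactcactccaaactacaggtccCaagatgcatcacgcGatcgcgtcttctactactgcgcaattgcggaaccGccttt
Rpl13a, SSB: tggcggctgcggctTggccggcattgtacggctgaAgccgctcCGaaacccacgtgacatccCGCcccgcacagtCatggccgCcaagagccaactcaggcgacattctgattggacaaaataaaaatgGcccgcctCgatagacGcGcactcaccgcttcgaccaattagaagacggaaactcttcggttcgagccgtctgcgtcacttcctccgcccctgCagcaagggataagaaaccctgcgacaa
Dnase2a, AP: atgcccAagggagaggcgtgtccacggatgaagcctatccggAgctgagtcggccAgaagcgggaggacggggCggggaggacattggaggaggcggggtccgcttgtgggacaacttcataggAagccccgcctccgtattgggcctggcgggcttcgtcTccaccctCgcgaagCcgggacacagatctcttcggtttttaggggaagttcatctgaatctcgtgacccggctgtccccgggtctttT
Spem1, AP: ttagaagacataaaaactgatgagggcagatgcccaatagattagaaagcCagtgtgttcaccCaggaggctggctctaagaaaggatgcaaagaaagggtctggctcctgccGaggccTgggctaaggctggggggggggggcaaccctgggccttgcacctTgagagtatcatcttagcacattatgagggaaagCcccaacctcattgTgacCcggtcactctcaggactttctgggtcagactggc

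Clp1, an RNA kinase of tRNA splicing, starts on the minus strand of chromosome 2, and its upstream bases at chr2:84727288-84727537 held 15 SSB positions in 8 libraries and 3 AP positions. The upstream bases of Rpl13a, a protein of the large ribosomal subunit, at chr7:45128746-45128995 (minus strand) held 14 SSB positions in 8 libraries and 2 AP positions. Those of Dnase2a, an acid DNase of the lysosome, at chr8:84908505-84908754 (plus strand) held 9 AP positions in 7 libraries and 4 SSB positions. Spem1, a gene of sperm maturation, had 8 AP positions in 4 libraries and 0 SSB positions at chr11:69822166-69822415 (minus strand). In the first pair the capitals stand at scattered nucleotides, and 14 different nucleotides were hit in each, so that the high numbers did not come from 1 recurrent site. The first 3 stretches were 58.8% to 62.4% G and C with 20 to 24 CG pairs, and that of Spem1 was 54.0% with 2.

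The libraries held between 225011 and 1041983 SSB positions and between 460719 and 963258 AP positions, with at most 1.23% of the positions of a library counted more than once. A gene-dense window held a median of 15 to 73 SSB positions and of 26 to 63 AP positions in a library, and 0 of the 578 windows lacked positions of either assay over the 12 libraries. Since the lists give where lesions lay and not how many there were per genome, every value below is a density relative to other regions of the same library.

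Both kinds of lesion were denser in gene-dense windows than in other windows with genes, in every tissue and in every library. The density ratio is the mean number of positions per gene-dense window divided by that per other gene-holding window of the same library. For SSBs it was 1.81 and 1.72 in the 2 libraries of bone marrow, 1.52 and 1.49 in brain, 1.51 and 1.53 in heart, 1.51 and 1.55 in liver, 1.43 and 1.37 in PBMCs and 1.34 and 1.35 in sperm. Bone marrow lay above and sperm below all other libraries, while brain, heart and liver overlapped. The geometric mean over the 6 tissues was 1.51-fold, or 0.59 ± 0.13 on the log2 scale (SD over tissues, n = 6), higher in 6 of 6 tissues (two-sided exact sign-flip test, p = 0.03125, the smallest that 6 tissues allow, adjusted p = 0.0355 over 25 such tests). The labels name 2 mice as the source of every tissue, without saying which replicate came from which, and the test measures the spread between tissues.

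For AP sites the density ratio was 1.49 and 1.40 in bone marrow, 1.43 and 1.39 in brain, 1.34 and 1.29 in heart, 1.22 and 1.41 in liver, 1.32 and 1.37 in PBMCs and 1.42 and 1.26 in sperm. The libraries of different tissues overlapped, and those of liver and of sperm lay furthest apart. The geometric mean was 1.36-fold, or 0.44 ± 0.06 on the log2 scale (SD over 6 tissues), with the same exact p of 0.03125 and 6 of 6 tissues above 1. Gene-dense windows took between 3.47% and 5.30% of all SSB positions of a library and between 3.10% and 4.12% of all AP positions. At these depths counting error was small, since the 95% interval (exact binomial) of the highest share was 5.24% to 5.37% and that of the lowest 3.05% to 3.15%, which covers counting error only.

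**Figure D1:**
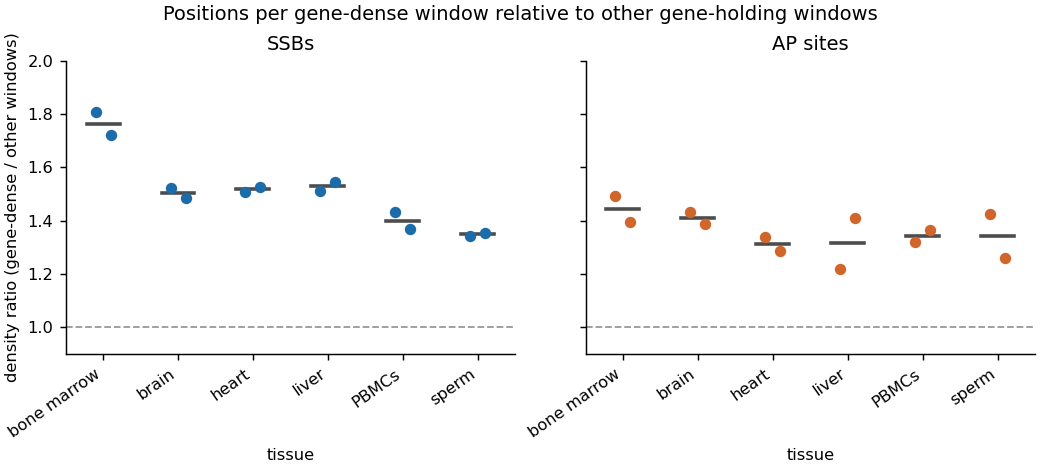
Density ratio of gene-dense to other gene-holding windows (vertical axis, ratio of mean positions per window) for each library (points) of the 6 tissues, SSBs on the left and AP sites on the right, with the mean of the 2 libraries as a bar and a dashed line at 1. All 24 points lie above 1, SSB libraries of bone marrow lie highest at 1.81 and 1.72, and the AP libraries of the tissues overlap.

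The tissues differed in how far SSBs were concentrated in gene-dense windows. Differences between tissues made up 96.7% of the variation of the log2 ratio over the 12 SSB libraries, against all ways to pair the libraries (one-sided exact permutation test, p = 0.000866, adjusted p = 0.00260 over 3 tests). For AP sites the share was 41.1% (exact permutation p = 0.565). The ratio of bone marrow was 1.21 times that of the other 10 SSB libraries (exact permutation p = 0.0152, the smallest possible with 66 assignments), and that of sperm 0.877 times (exact permutation p = 0.0303). Neither passed after adjustment over 12 comparisons (adjusted p = 0.182), a level that the smallest possible p cannot bring under 0.05. Without bone marrow the share between tissues was 93.4% (exact permutation p = 0.00952).

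A property of the libraries that uses no gene-dense window moved with this ratio. Among the other windows, the 25% with the highest promoter G and C content (65.0% or more) were compared with the 25% with the lowest (51.2% or less). This GC ratio ranged from 1.45 to 1.75 over the SSB libraries and from 1.35 to 1.54 over the AP libraries. It was highest in bone marrow for both assays, at 1.71 ± 0.07 (SD, n = 2) for SSBs and 1.52 ± 0.04 for AP sites, and lowest for SSBs in sperm, at 1.46 ± 0.01. Its part in the density ratio was not tested. Over the 12 libraries the SSB ratio had a Pearson correlation of 0.962 and a Spearman correlation of 0.881 with the GC ratio, and of 0.161 and 0.357 with depth. For the AP ratio these were 0.984 and 0.986 with the GC ratio, and 0.199 and 0.168 with depth. These are descriptions, since both members of each pair come from the same library and share its base composition and depth.

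SSBs were concentrated more than AP sites. Within a DNA sample, the SSB ratio divided by the AP ratio was 1.21 and 1.23 in bone marrow, 1.06 and 1.07 in brain, 1.13 and 1.19 in heart, 1.24 and 1.10 in liver, 1.09 and just above 1 in PBMCs and 0.944 and 1.08 in sperm. It exceeded 1 in 11 of 12 samples, with sperm replicate 1 as the exception, and the mean was 1.11-fold or 0.15 ± 0.11 on the log2 scale (SD over 6 tissues, 6 of 6 positive, exact sign-flip p = 0.03125). Whether this gap differed between tissues could not be shown (72.4% of the variation between tissues, exact permutation p = 0.0988). Leaving out sperm replicate 2 lowered the mean to 0.13 and ended the call (exact sign-flip p = 0.09375), since sperm then rested on replicate 1.

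Density rose step by step with the number of genes. Windows in which no protein-coding gene start was placed had 0.735 ± 0.05 of the mean SSB density of other gene-holding windows and 0.769 ± 0.02 of the AP density (SD over 6 tissues). With 1 start the multiples were 0.979 for SSBs and 0.991 for AP sites, with 3 starts 1.17 and 1.14, and with 4 starts, just under the limit of the rule, 1.26 and 1.22 (416 windows). The 248 windows with 5 starts, just inside it, stood at 1.40 ± 0.10 and 1.30 ± 0.04. From there the SSB multiple went on to 1.53 ± 0.16 with 6 to 7 starts, 1.72 ± 0.20 with 8 to 9 and 1.77 ± 0.25 with 10 or more, and the AP multiple to 1.37 ± 0.06, 1.48 ± 0.08 and 1.53 ± 0.09. The last 2 classes overlapped within their spread. Within the gene-dense windows alone, each further gene start went with 0.0627 ± 0.0230 more of the SSB multiple and 0.0365 ± 0.0084 more of the AP multiple (least-squares slope, SD over 6 tissues, 6 of 6 positive, exact sign-flip p = 0.03125 for each). The SSB slope was 0.104 ± 0.003 (SD, n = 2) in bone marrow and 0.0416 ± 0.0052 in sperm.

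**Figure D2:**
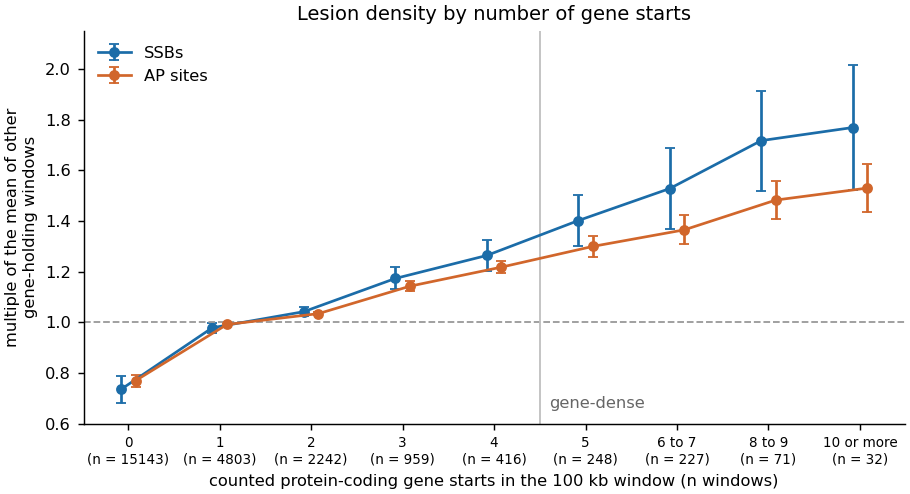
Mean SSB (blue) and AP (orange) density of 100 kb windows by the number of counted protein-coding gene starts, as a multiple of the mean of other gene-holding windows; points are means of 6 tissues and bars the SD over tissues. Both curves rise from under 0.8 without a placed gene start to 1.77 for SSBs and 1.53 for AP sites with 10 or more, and SSBs lie above AP sites from 2 starts on.

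The positions of gene-dense windows were not packed only at the gene starts. Bases within 1 kb of the start of any RefSeq gene made up 16.8% of gene-dense and 7.32% of other windows. Both ends of a gene of unknown strand were taken as starts, so these bases include some 3′ ends. After these bases were left out, the ratio per remaining base was still 1.43-fold for SSBs (0.51 ± 0.11 on the log2 scale) and 1.33-fold for AP sites (0.41 ± 0.05), above 1 in 6 of 6 tissues for each (exact sign-flip p = 0.03125). Outside all RefSeq gene spans it was 1.34-fold for SSBs and 1.20-fold for AP sites (exact sign-flip p = 0.03125 for each). Within 1 kb of gene starts, base for base, gene-dense windows exceeded other windows 1.40-fold for SSBs and 1.23-fold for AP sites (exact sign-flip p = 0.03125 for each).

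Gene starts stood out from their surroundings in both classes of windows. For the first contrast, starts were taken as above, with some 3′ ends among them. Per base, the density within 1 kb of starts was 1.63 times that of the rest of the gene-dense windows for SSBs. For AP sites it was 1.33 times, and in other windows these values were 1.66 and 1.43 times. The AP contrast was smaller in gene-dense windows in 6 of 6 tissues (0.927-fold, exact sign-flip p = 0.03125), and for SSBs the difference was 0.979-fold with 1 of 6 tissues above 1 (exact sign-flip p = 0.15625). Around 3028 gene starts of gene-dense windows, SSB density peaked in the first 500 bp of the gene at 3.26 ± 0.96 times the mean of other windows and was 1.53 times that mean 8 to 10 kb away. Around 11969 starts of other windows the same bin stood at 2.66 ± 0.60 and the distant bins at 1.04. The AP peak was 2.10 ± 0.21 over 1.39 in gene-dense and 1.87 ± 0.13 over 1.04 in other windows. Thus both the peak and the ground on which it stood were higher in gene-dense windows. Starts of neighbouring genes were not left out of the distant bins, so this ground is not a level free of gene starts.

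**Figure D3:**
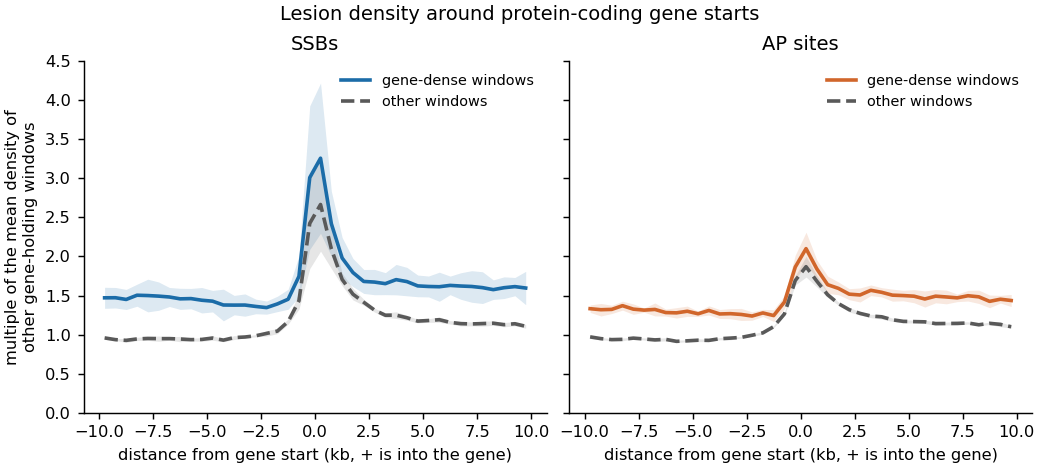
Density of SSBs (left) and AP sites (right) in bins of 500 bp around protein-coding gene starts of gene-dense windows (solid) and of other windows (dashed), as a multiple of the mean density of other gene-holding windows; lines are means and bands the SD over 6 tissues. All curves peak at the start, where SSBs of gene-dense windows reach 3.26, and the gene-dense curves stay above the others 10 kb away.

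At promoters the tissues spread most. In the 300 bp from 250 bp before to 50 bp after the starts of gene-dense windows (3184 promoters that do not overlap), the SSB multiple was 5.47 and 6.42 in the libraries of bone marrow, 4.16 and 4.23 in heart, 3.71 and 4.03 in liver, 3.25 and 3.89 in brain, 2.24 and 2.80 in PBMCs and 2.10 and 2.21 in sperm. These rest on 250 to 1930 positions per library. Bone marrow stood apart above, heart, liver and brain followed close to each other, and PBMCs and sperm had the lowest libraries. In promoters of other windows the tissue means ran in nearly the same order, from 4.55 ± 0.54 (SD, n = 2) in bone marrow to 2.06 ± 0.05 in PBMCs and 2.07 ± 0.04 in sperm. For AP sites, promoters of gene-dense windows stood at 1.89 to 2.29 in the 6 tissue means, with no tissue apart from the rest.

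The bases at the lesions were alike in both classes of promoters. Of 9383 SSB positions in promoters of gene-dense windows, 56.9% had C at the nucleotide just 5′ of the listed one on the same strand and 4.36% had A there, where C made up 28.6% and A 21.4% of all promoter bases. The listed nucleotide itself was C in 38.5% and G in 37.2%. In promoters of other windows C preceded 56.8% of the SSB positions. Of 7925 AP positions, 37.2% were listed at A and 37.7% at G, the purines, and 53.9% had C at 2 nucleotides to the 5′ side. In promoters of other windows those shares were 36.3%, 38.0% and 53.8%. How the listed nucleotide relates to the lesion is not given in the sources used here, so the offsets are those of the lists.

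The gene-dense windows differed widely among themselves. The SSB multiple of a window, averaged over the 6 tissue means, had a median of 1.52 and ran from 0.0927 to 8.06, with the 10th percentile at 0.922 and the 90th at 2.04. Above 1 were 502 of 578 windows (86.9%), against 49.9% of other windows, and 283 (49.0%) were above 1 in all 12 SSB libraries, against 14.9% of other windows. The AP multiple had a median of 1.37 and ran from 0.0893 to 9.19, with 488 windows (84.4%) above 1, against 50.4% of other windows, and 287 (49.7%) above 1 in all 12 libraries, against 21.7%. SSB and AP multiples of the 578 windows went together (Pearson correlation 0.924, Spearman correlation 0.886), and both come from the same DNA and share the sequence of the window.

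**Figure D4:**
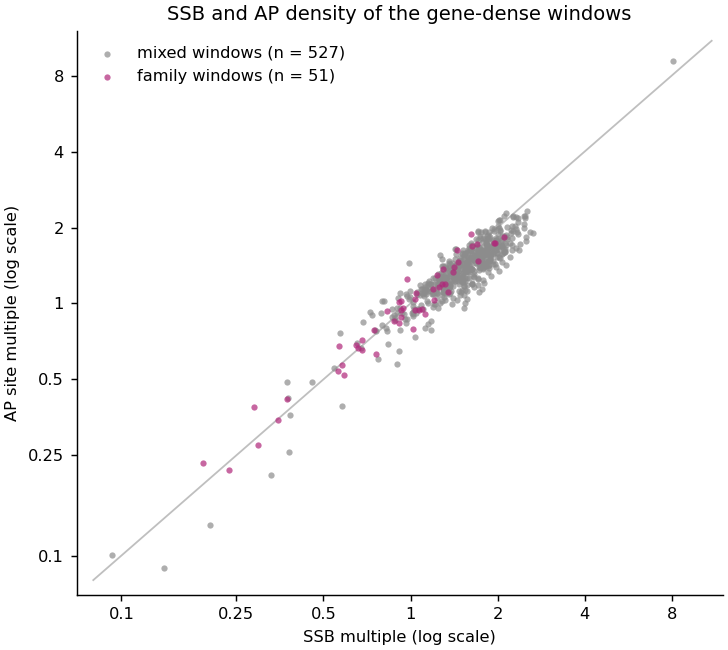
SSB against AP multiple of each of the 578 gene-dense windows, both on log axes, with mixed windows in grey, windows filled by 1 gene family in magenta and a line of equality. Most windows lie between 1 and 2.04, 1 window stands apart at 8.06 and 9.19, and a group of family and other windows lies below 0.5 for both assays.

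Lesion density differed between windows filled by 1 gene family and windows of mixed genes. In 51 windows 5 or more counted genes shared the letters of the symbol before the first digit, and these are called family windows. Predicted genes (Gm numbers, Rik clones and LOC symbols) were not taken as a family. The other 527 are called mixed, among them 14 with 5 or more predicted genes. The mean multiples of those 14 were 0.670 for SSBs and 0.622 for AP sites, against 1.58 and 1.42 in the remaining 513. Mixed windows were 1.55-fold denser than other gene-holding windows for SSBs and 1.39-fold for AP sites (exact sign-flip p = 0.03125 for each). Family windows stood at 1.03-fold for SSBs (0.04 ± 0.03 on the log2 scale, exact sign-flip p = 0.0625) and within 1 SD of other windows for AP sites (0.0029 ± 0.029 on the log2 scale, 3 of 6 tissues above 0, exact sign-flip p = 0.90625). The gap between both kinds was 1.51-fold for SSBs and 1.39-fold for AP sites, in 6 of 6 tissues (exact sign-flip p = 0.03125 for each). Promoter G and C content, 48.0% in family and 58.6% in mixed windows, and the share of bases inside RefSeq genes, 34.5% and 70.9%, moved with this gap, and their part in it was not tested.

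Families differed from each other. The 4 windows of the Hox clusters, which hold the homeobox genes that pattern the body axis, were among the densest, at 1.79 ± 0.09 (SD over 6 tissues) for SSBs and 1.59 ± 0.05 for AP sites. Single clusters stood at 2.10 for Hoxa, 1.96 for Hoxc, 1.72 for Hoxb and 1.40 for Hoxd in the SSB multiple. The 5 windows of keratin genes (Krt) reached 1.47 ± 0.11 for SSBs and 1.58 ± 0.08 for AP sites. By contrast, 4 windows of keratin-associated proteins (Krtap), small proteins of the hair shaft, had 0.904 ± 0.087 and 0.860 ± 0.036. The 7 windows of histone gene clusters stood near 1, at 1.09 ± 0.11 and 1.02 ± 0.05.

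Lowest were the windows of Defa and Tas2r genes. The 3 windows of Defa genes, the alpha-defensins of intestinal Paneth cells, had 0.275 ± 0.054 of the mean for SSBs and 0.321 ± 0.054 for AP sites. The 3 windows of bitter taste receptors (Tas2r) had 0.302 ± 0.047 and 0.304 ± 0.033. Windows with Sprr or Lce genes, which encode proteins of the cornified envelope of skin, had 0.711 ± 0.084 and 0.729 ± 0.041 over 5 windows and lay under 1 in all 24 libraries. The window of the beta-globin genes (Hbb) stood at 0.648 ± 0.195 for SSBs and 0.687 ± 0.132 for AP sites, and the window filled by zinc finger genes (Zfp) at 0.681 ± 0.042 and 0.718 ± 0.096. Near-identical copies are common in several of these clusters, and how reads that match more than 1 copy were treated is not given in the sources used here.

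**Figure D5:**
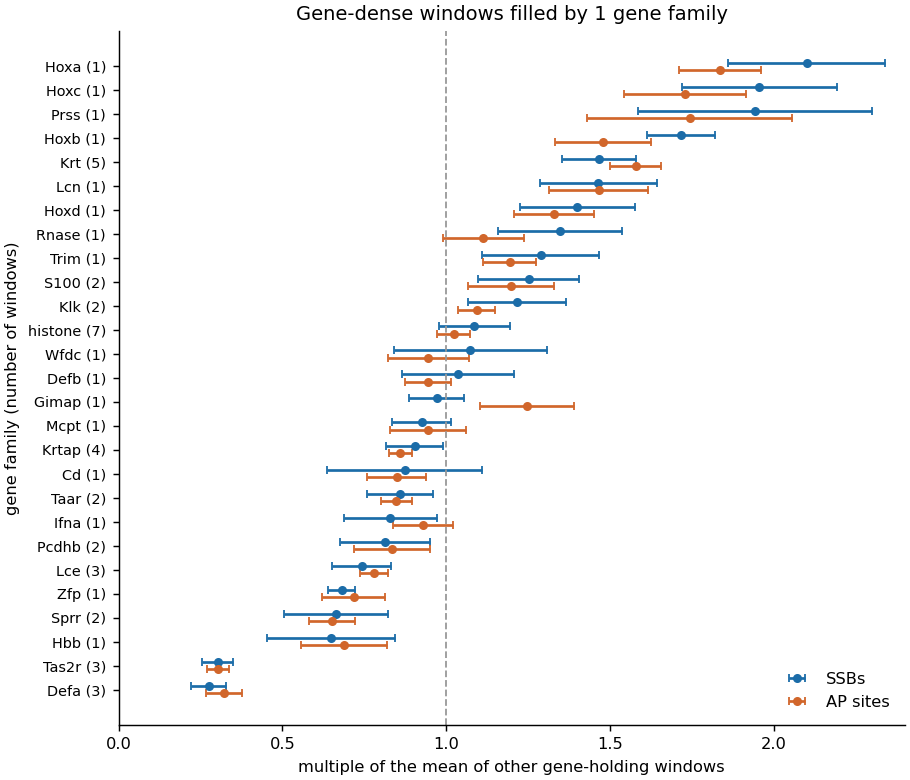
SSB (blue) and AP (orange) multiple of gene-dense windows filled by 1 gene family, sorted by the SSB multiple, with the number of windows in brackets; points are means of 6 tissue means and bars the SD over tissues. Hoxa and Hoxc lie near 2, and Defa and Tas2r lie at about 0.3 for both assays.

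Gene-dense windows with genes of groups that are spread over the genome stood above 1. So did mixed windows in general, with a mean over 527 windows of 1.56 for SSBs and 1.40 for AP sites, and no group was tested against these means. The 24 windows with a cytosolic ribosomal protein gene (Rpl or Rps) stood at 1.63 ± 0.25 for SSBs and 1.42 ± 0.09 for AP sites. The 51 windows with a solute carrier gene (Slc) had 1.71 ± 0.19 and 1.52 ± 0.07, and the 13 windows with a gene of respiratory complex I or its assembly (Ndu) had 1.53 ± 0.17 and 1.37 ± 0.08. Zinc finger genes (Zfp) gave 1.48 ± 0.19 and 1.33 ± 0.06 in the 31 windows with at least 1 of them. In the 4 windows with 3 or more, the values were 1.16 ± 0.14 and 0.975 ± 0.074. Predicted genes (Gm numbers and Rik clones) showed the same contrast, with 1.37 ± 0.13 for SSBs in 126 windows with any and 0.809 ± 0.029 in 25 windows with 3 or more. These groups were named with earlier results of the series known and share windows with each other, so their values are descriptions.

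The 5 gene-dense windows with the most starts ranged widely in lesion density. Most gene starts, 17, lay in chr16:89200001-89300000, with Krtap20-2 and 16 predicted genes, which held 3 to 31 SSB positions and 7 to 23 AP positions per library. Its SSB multiple was 0.581 (0.260 to 0.908 over the 12 libraries) and its AP multiple 0.391 (0.184 to 0.829), so that every library lay below 1. The 15 genes of chr2:25200001-25300000 include Nelfb, a factor of promoter-proximal pausing of RNA polymerase, Tubb4b, a beta-tubulin, and Anapc2, a subunit of the anaphase-promoting complex. That window stood at 2.53 (1.59 to 3.48) for SSBs and 2.33 (1.88 to 2.98) for AP sites, above 1 in all 24 libraries. The other window with 15 starts, chr19:6900001-7000000, with Esrra, a nuclear receptor of energy metabolism, Bad, a pro-apoptotic member of the BCL2 family, and Vegfb, a growth factor, had 2.32 (1.61 to 3.44) and 1.98 (1.12 to 2.55). A cluster of 14 histone genes at chr13:23500001-23600000 had 1.23 (0.810 to 1.93) and 1.30 (1.06 to 1.65). The 14 genes of chr10:77700001-77800000, Krtap12-1 and 13 predicted genes, had 1.30 (0.721 to 1.99) and 1.13 (0.933 to 1.45).

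One window exceeded all others by far. At chr1:88200001-88300000, with Ugt1a1 and Ugt1a2, glucuronosyltransferases of bilirubin and drug clearance, Hjurp, the chaperone of the centromeric histone, Dnajb3 and Mroh2a, the SSB multiple was 8.06 (6.93 to 9.65 over 12 libraries) and the AP multiple 9.19 (8.49 to 9.89). It held 87 to 368 SSB and 183 to 430 AP positions per library. The positions were not at a single site, since of 2065 SSB positions the fullest 10 kb, at chr1:88260001-88270000, held 15.8%, and of 3761 AP positions 16.3%. Leaving it out changed no call on the density ratios or their differences between tissues and assays.

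Of the 4 next highest SSB windows 3 lay on chromosome 10, and the other was that of Nelfb at 2.53. With 2.65 (1.77 to 4.16) stood chr10:81300001-81400000, home of Fzr1, an activator of the anaphase-promoting complex, Tbxa2r, the thromboxane receptor, and 8 further genes. The window chr10:80100001-80200000, with Stk11, a kinase that acts on AMPK, Cirbp, a cold-inducible RNA-binding protein, and Atp5d, a subunit of ATP synthase, had 2.59 (1.80 to 4.04). After the Nelfb window, chr10:80300001-80400000 with Mbd3, a subunit of the NuRD complex, and Pcsk4, a proprotein convertase of germ cells, had 2.50 (1.90 to 3.46). Their AP multiples were 1.90, 1.92 and 1.83, lower than for SSBs. For AP sites the highest after the windows of Ugt1a1 and of Nelfb were chr9:107900001-108000000 (Mst1r, Traip, Uba7 and 4 more) with 2.28, chr8:122400001-122500000 with 2.22 and chr14:31200001-31300000 with 2.22. The second of these holds Cyba, a subunit of the NADPH oxidase, and the third Bap1, a deubiquitinase, and Tnnc1, the cardiac troponin C.

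At the other end stood windows of predicted genes and of the families above. The window chr4:73600001-73700000, with 6 predicted genes, had 0.0927 for SSBs and 0.101 for AP sites and held 0 to 6 positions of either assay in a library. In chr10:100300001-100400000 and chr10:104100001-104200000, also of predicted genes, the multiples were 0.140 and 0.203 for SSBs and 0.0893 and 0.133 for AP sites. The Defa window chr8:21500001-21600000 had 0.191 and 0.232, and the Tas2r window chr6:132800001-132900000 had 0.236 and 0.219. Low for AP sites was also chr16:89100001-89200000, with 8 predicted genes, at 0.209, where SSBs stood at 0.330. At 0 to 16 positions per library these values cannot be ordered among themselves.

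Across chromosomes, the mean of the gene-dense windows exceeded that of other windows of the same chromosome in all 12 SSB libraries on 16 of the 19 autosomes, and likewise for AP sites. Chromosome 1 had the highest AP ratio, 1.91 ± 0.04 (SD over 6 tissues, 11 windows, the Ugt1a1 window among them). Chromosome 7, with 94 windows, had 1.83 ± 0.21 for SSBs and 1.55 ± 0.07 for AP sites. Chromosomes 12 and 16 were above 1 in 11 of 12 libraries of each assay, with SSB ratios of 1.31 ± 0.13 and 1.11 ± 0.07. The 5 windows of chromosome 18 went the other way, at 0.867 ± 0.098 for SSBs and 0.853 ± 0.050 for AP sites. There the strand of many genes was not known, and the windows that could be counted are a selected set.

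Some properties that the rule did not use went with gene density. Genes of gene-dense windows were short, with a median span of 7100.5 bp against 23656.5 bp in other windows. Spans of RefSeq genes of any kind, also of genes that start elsewhere, covered 67.7% of the bases of gene-dense windows. In other windows they covered 58.3%. The G and C content of their promoters was close to that elsewhere, at 57.5% against 57.9% (values for 83.3% of the counted genes in gene-dense and 86.6% in other windows). Among the gene-dense windows themselves, density rose with promoter G and C content. The SSB multiple was 1.14 ± 0.05 in the lowest 25% of windows (up to 55.4%), 1.57 ± 0.16 up to 58.6%, 1.66 ± 0.18 up to 61.3% and 1.68 ± 0.18 in the highest 25% (61.4% or more), with AP multiples of 1.10, 1.38, 1.45 and 1.50. The mean number of genes in these classes was 6.34, 6.31, 6.40 and 6.03, so gene number did not rise with them. No genome was used here, so the G and C content of whole windows, and how much of a window reads can be placed in, were not measured.

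Window by window, many gene-dense windows held a larger share of the SSB positions of a library than of the AP positions. In edgeR's quasi-likelihood test of SSB against AP libraries with tissue as a covariate, 360 of 23531 tested autosomal windows were higher in SSBs at an adjusted p under 0.05, which is 1.53%, and 199 were higher in AP sites, which is 0.846%. Of the 575 gene-dense windows that passed the filter on low counts, 118 were higher in SSBs (20.5%) and 1 in AP sites (0.174%). Among other gene-holding windows 2.11% were higher in SSBs. The median log2 fold change of SSBs over AP sites was 0.18 in gene-dense windows, 0.03 in other gene-holding windows and 0.01 over all windows, and it was positive in 84.0% of the gene-dense windows. Of the 118 windows 117 were mixed and 1 was a family window. Their log2 fold changes were modest, from 0.32 to 0.73 with a median of 0.44. The fit takes the 24 libraries as independent, although pairs of them share a DNA sample. Without SSB bone marrow replicate 1, 75 of 575 gene-dense windows were higher in SSBs (209 of 23557 over all windows). Without all bone marrow 45 of 576 were (120 of 23593). With DESeq2 76 of 575 were higher (168 of 23531), and with every library thinned to the same depth 22 of 562 (50 of 18682).

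The window of smallest p was chr5:137700001-137800000, with Mepce, the capping enzyme of 7SK RNA, and Tsc22d4, a leucine zipper protein. Normalised positions are positions in the window per 1000000 positions of the library. The window held between 48.9 and 105 normalised SSB positions (median 71.2) and between 32.9 and 56.4 normalised AP positions (median 45.5), so that the ranges overlapped little. Its log2 fold change was 0.73 ± 0.11 (SE, edgeR quasi-likelihood, adjusted p = 1.17e-07). Next came chr7:16800001-16900000, with Prkd2, a protein kinase D, at 0.66 ± 0.10 (edgeR adjusted p = 8.29e-07), with 50.7 to 108 normalised SSB and 32.2 to 62.9 normalised AP positions. The window chr9:21900001-22000000, with Epor, the erythropoietin receptor, and Rab3d, a small GTPase of secretion, had 0.66 ± 0.11 (edgeR adjusted p = 1.46e-06). In chr6:124700001-124800000, home of Ptpn6, a phosphatase of blood cells, and Eno2, the neuronal enolase, it was 0.62 ± 0.10 (edgeR adjusted p = 1.80e-06). The fifth was chr11:69600001-69700000, with Eif4a1, a translation initiation helicase, and Cd68, a marker of macrophages, at 0.62 ± 0.10 (edgeR adjusted p = 4.11e-06).

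The only gene-dense window higher in AP sites was chr5:26000001-26100000, with Speer4a and 4 predicted genes. It held 50.5 to 84.7 normalised AP positions (median 67.9) and 38.4 to 63.2 normalised SSB positions (median 43.7), and the ranges overlapped. Its log2 fold change was -0.48 ± 0.11 (SE, edgeR adjusted p = 0.00462).

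Between tissues, SSB density of single windows differed in 112 of 23071 tested windows (edgeR quasi-likelihood F test over 6 tissues, adjusted p under 0.05), which is 0.485%. Among 573 gene-dense windows tested it differed in 35 (6.11%), and among 8501 other gene-holding windows in 54 (0.635%). In 34 of the 35 the highest tissue mean was that of bone marrow, and in 25 the lowest was that of sperm, with a median ratio of 2.10 of bone marrow over sperm. The direction was much the same over all 112 called windows. There bone marrow was highest in 94 and sperm lowest in 65, with a median ratio of 2.06. Over all 578 gene-dense windows bone marrow was highest in 382 and sperm lowest in 264, and other windows were not counted in this way. The number rested on bone marrow, and it also fell with only replicate 1 of SSB bone marrow left out. Without both bone marrow libraries 0 of 574 gene-dense windows were called, against 1 of all 23244 windows. At an unadjusted p under 0.05 were then 92 of the 574 and 1723 of the 23244. Without sperm 9 of 573 gene-dense windows were called (34 of 23188 over all windows), and at equal depth 7 of 563 (13 of 18784). Without TMM scaling 13 of 573 were called (43 of 23071). With DESeq2 0 of 573 gene-dense windows passed, against 1 of all 23071. At an unadjusted p under 0.05 DESeq2 had 52 of the 573 and 194 of the 23071.

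The smallest p belonged to chr8:70700001-70800000, with Rab3a, a GTPase of synaptic vesicles, Ifi30, a thiol reductase of lysosomes, and Pik3r2, a regulatory subunit of PI3-kinase. Its normalised SSB positions were 192 and 195 in bone marrow, 130 and 107 in brain, 103 and 112 in heart, 126 and 129 in liver, 75.6 and 78.5 in PBMCs and 72.0 and 79.0 in sperm. Bone marrow lay above and PBMCs and sperm below the other libraries without overlap (edgeR adjusted p = 1.56e-05).

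In chr3:89100001-89200000, with Pklr, the pyruvate kinase of liver and red cells, and Clk2, a kinase of splicing factors, the values were 135 and 89.0 in bone marrow, 98.7 and 99.8 in liver, 84.4 and 68.7 in PBMCs, 48.0 and 68.2 in sperm, 47.0 and 66.2 in heart and 44.3 and 40.4 in brain. Here liver stood beside bone marrow, and brain was lowest (edgeR adjusted p = 2.07e-05). The window chr15:76300001-76400000, with Cyc1, the cytochrome of complex III, and Exosc4, a subunit of the RNA exosome, ran from 159 and 140 in bone marrow to 62.2 and 52.3 in PBMCs (edgeR adjusted p = 0.000997). The window of Kmt2b, a histone H3 lysine methyltransferase, and Psenen, a subunit of gamma-secretase, chr7:30500001-30600000, ran from 140 and 127 in bone marrow to 58.7 and 50.2 in sperm (edgeR adjusted p = 0.00194). Brain, at 122 and 137, and liver, at 135 and 101, reached the level of bone marrow there. The last, chr4:155800001-155900000 with Dvl1, a transducer of Wnt signals, and Ints11, the nuclease of the Integrator complex, had 118 and 174 in bone marrow, 159 and 120 in heart and 69.3 and 57.4 in sperm (edgeR adjusted p = 0.00215). The first 4 of these 5 windows lost the call when 1 library was left out, and the highest adjusted p was then 0.362, for the window of Cyc1.

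AP density of single windows differed between tissues in 0 of 23701 windows with edgeR's quasi-likelihood test, which is 0% of all windows tested and 0 of 575 gene-dense windows. At an unadjusted p under 0.05 were 980 of all 23701 windows and 52 of the 575 gene-dense windows. DESeq2 called 0, with 25 of the 23701 and 5 of the 575 at an unadjusted p under 0.05. In simulated counts this test recovered 0% of 200 windows changed 1.5-fold in 1 tissue, the liver, and 42% of those changed 2-fold. The SSB test recovered 0% and 38.5%. The changed windows were drawn from all tested windows, and the dispersion was fixed and not estimated from the data. These rates are thus not those of gene-dense windows, and they hold for the simulated setting only. The 0 called windows therefore do not show that the tissues were alike in AP sites.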

How the data were processed

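The data were 24 libraries, SSBs and AP sites of 12 DNA samples. Per library, the authors deposited a list of single-nucleotide positions with strand and raw count, not normalized and not pooled. The submitters' processing notes name mm10 and GRCm38. The aligner and filters are not given in the sources used here.

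A position counted 1 time whatever its deposited count, as the study did, in 100 kb windows, with all positions of the library as its total. RefSeq genes (GRCm38.p6) came from a table without strand. Strand was taken from a RefSeq promoter table for 16457 of 20560 protein-coding genes. A gene of unknown strand was counted if both ends lay in 1 window, which left 1351 genes out. Another 105 genes listed before base 3000000 were left out.

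A library gave 1 ratio, and the means of 2 libraries per tissue were tested with an exact sign-flip test over 6 tissues. Differences between tissues used exact permutation of library pairs. Windows were tested with edgeR 4.0.16 (TMM, quasi-likelihood, mean of at least 5 positions per library, Benjamini-Hochberg adjustment, threshold 0.05), with DESeq2 1.42.0 as an alternative, in R 4.3.3, and with Python 3.11.15, numpy 2.4.6, pandas 2.3.3 and scipy 1.17.1. Tests were tested on simulated data. Depth ranged from 225011 to 1041983 positions per library.

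Promoter stretches of chromosome 18 were not considered for printing. Named windows were the 5 with the most gene starts, the 5 highest and 5 lowest in density per assay, and up to 5 of smallest p in each direction or fit. The windows, families and tests were chosen with earlier results of these data known. The labels state that both assays used the same sample, which paired SSB with AP libraries. They do not state that equal numbers mark 1 mouse across tissues.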

Additional observations from a re-analysis of the deposited data

Results flagged for a closer look

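The following contrasts between groups passed a test of the difference itself. The SSB density ratio of gene-dense over other windows differed between the 6 tissues (exact permutation p = 0.000866 over all pairings of the 12 libraries), from 1.76 ± 0.06 (SD, n = 2) in bone marrow to 1.35 ± 0.01 in sperm. The density ratio was higher for SSBs than for AP sites of the same DNA by 0.15 on the log2 scale (exact sign-flip p = 0.03125 over 6 tissues). With 2 libraries per tissue and assay, no group was large enough to look for a library that stands apart.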

How the results depend on the processing

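No result reversed under any alternative. The SSB and AP density ratios and their differences between tissues kept direction and side of the threshold under every alternative run, which included 3 or 8 gene starts as the limit, other comparison windows, the median over windows, a shifted grid, equal depth and, chosen after seeing the data, genes of unknown strand put at either end. The slopes did so with rank correlation, mixed windows alone, summed counts and single libraries left out, and the ratios away from gene starts with 2 kb, 5 kb or gene spans left out and with single libraries left out. With single libraries left out, the log2 ratio ran from 0.58 to 0.60 for SSBs and from 0.42 to 0.46 for AP sites. Against other windows without Olfr and Vmn genes it was lower, at 0.54 for SSBs and 0.39 for AP sites. The SSB minus AP difference of log2 ratios was 0.0904 with 3 or more gene starts and 0.187 against windows overlapped by any gene (exact sign-flip p = 0.0625 for each). It was 0.119 without bone marrow, where 5 tissues cannot give a p under 0.0625, and 0.132 to 0.163 with single samples left out. The cause of these changes was not tested. The count of windows that differ between assays, 559, was 218 with DESeq2, 62 at equal depth, 199 without bone marrow and 331 to 664 with single libraries left out. For SSBs between tissues the count of 112 was 43 without TMM, 1 with DESeq2, 13 at equal depth, 1 without bone marrow, 34 without sperm and 3 to 126 with single libraries left out. For AP sites it was 0 to 1 with single libraries left out. At equal depth each library kept 225011 positions, so fewer windows passed the filter.

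Over the 12 within-sample pairs, without averaging per tissue, the SSB minus AP difference was 0.15 (exact sign-flip p = 0.00146). Without the pairing it had a permutation p of 0.00242. Both take samples of the same tissue as independent, so the test over 6 tissues (exact sign-flip p = 0.03125) is the one relied on. With the DNA sample as a block 475 windows differed between assays. With the replicate number as a block 114 windows differed between tissues for SSBs and 0 for AP sites. That block left 97.2% of the SSB variation between tissues (exact permutation p = 0.00125). These blocks changed no call on the ratios and their differences or on the windows named by smallest p. Gene-dense windows higher in SSBs went from 118 to 103 of 575 with the DNA sample as a block. Over all windows they went from 360 to 313 of 23531. Deviations of libraries with the same number correlated between -0.122 and 0.0583 across tissues, so the numbers were not taken to pair tissues.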

Other observations

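The 82 windows set aside because genes of unknown strand might have brought them to 5 gene starts had 1.44 times the mean SSB density of other gene-holding windows (1.29 to 1.71 over 12 libraries) and 1.35 times the AP density (1.22 to 1.46).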
